A study of Mus musculus with 12 samples.

Results

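The transcripts described here encode heat shock chaperones of the cytosol, with the factor that switches on the heat-inducible ones. They are 10 genes chosen by name, namely Dnajb1, Hspa1a, Hspa1b, Hsph1, Hsp90aa1, Hspa8, Hspb1, Hspb8, Bag3 and Hsf1, out of 55401 genes counted, and all 10 had counts high enough to be tested. The choice was made with earlier results of these data known. Shares over all genes are therefore printed beside the counts for scale and do not test the set. Their levels were read from RNA sequencing of whole mouse liver, with 12 libraries in 4 groups of 3. Control mice were FBXL5F/F, that is, they carried floxed alleles of Fbxl5 and no Cre. FBXL5ΔDC mice were CD11c-Cre/Fbxl5F/F, carried the same floxed alleles and also expressed Cre under the CD11c promoter. That promoter drives expression in dendritic cells above all, and in some macrophages. Livers of each genotype were taken untreated (0 h) or 6 h after intraperitoneal acetaminophen (APAP), a drug that injures hepatocytes in overdose. All mice were males of 7 to 10 weeks. The protocol names a fast of 16 h before the injection, food directly after it, and 2 doses, 300 and 500 mg/kg, which it does not assign to single mice. Whether untreated mice were fasted is not stated. Nothing in the labels says how mice were shared between cages or litters, so p-values here measure the spread between these livers only.

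Heat shock chaperones keep proteins folded when heat, oxidants or reactive drug metabolites damage them. HSP70 proteins (Hspa1a, Hspa1b and the constitutive Hspa8) bind unfolded stretches, J-domain proteins such as Dnajb1 load clients onto them and stimulate their ATPase, and the HSP110 protein Hsph1 and the BAG-domain protein Bag3 exchange their nucleotide. Hsp90aa1, the inducible cytosolic HSP90, finishes the folding of kinases and receptors, and the small heat shock proteins Hspb1 and Hspb8 hold unfolded proteins without using ATP, Hspb8 in a complex with Bag3 that feeds autophagy. Heat shock factor 1 (Hsf1) is held inactive by chaperones and, once released, binds arrays of the short element nGAAn in the promoters of heat-inducible chaperone genes.

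Heat shock factor 1 binds such arrays. Stretches of the members' promoters that hold a pair of adjacent nGAAn units in opposite orientation are therefore shown. The units were searched as GAANNTTC and TTCNNGAA in the window from 250 bases before to 50 bases after the start of each gene in the RefSeq table for GRCm38.p6. Each motif is its own reverse complement, so a search of 1 strand covers both, and matches may overlap. The table held promoters for 7 of the 10 members, and 6 of those 7 held a match in any of their promoters, against 17% of all 27025 genes in the table (15.1% of its 32851 promoters of that length). Hsp90aa1, Hspa8 and Hsf1 have no entry. Dnajb1 did not hold these letters. In the lines below, capitals mark the match, and the sequence runs 5′ to 3′ on the strand of the gene.
Hspa1a, chr17:34972157-34972406, minus strand, the 250 bases before the start: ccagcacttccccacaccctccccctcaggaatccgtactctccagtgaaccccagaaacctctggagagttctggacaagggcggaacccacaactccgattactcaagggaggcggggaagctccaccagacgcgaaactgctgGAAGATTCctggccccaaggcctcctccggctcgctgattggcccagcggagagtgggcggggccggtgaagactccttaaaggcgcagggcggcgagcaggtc
Hspa1b, chr17:34959239-34959488, minus strand, the 250 bases before the start: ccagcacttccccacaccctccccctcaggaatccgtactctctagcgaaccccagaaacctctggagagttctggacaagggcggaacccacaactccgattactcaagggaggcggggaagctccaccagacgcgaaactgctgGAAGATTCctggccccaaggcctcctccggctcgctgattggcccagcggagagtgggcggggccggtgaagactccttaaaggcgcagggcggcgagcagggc
Hsph1, chr5:149636337-149636395, minus strand, up to the start: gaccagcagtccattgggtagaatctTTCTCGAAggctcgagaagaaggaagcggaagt
Hspb1, chr5:135887776-135887855, plus strand, before the start: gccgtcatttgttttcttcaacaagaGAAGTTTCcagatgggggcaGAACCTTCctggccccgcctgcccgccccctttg
Hspb8, chr5:116422844-116422864, minus strand, from the start on: gaGAAGTTTCtaggctcgcga
Bag3, chr7:128523614-128523632, plus strand, after the start: ggatgggaccaGAAGTTTC
The matches began at base -104 from the start in Hspa1a and in Hspa1b, at -33 in Hsph1, at -117 and -97 in Hspb1, at 3 in Hspb8 and at 43 in Bag3, and Hsph1 held a further overlapping pair at 37 and 42. The 250 bases upstream of Hspa1a and Hspa1b differed at 3 positions and were otherwise the same (98.8% identity). A match describes letters in these windows and does not show that the factor binds there.

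Libraries held 67173096 to 72512319 counts each. The smallest count behind any value of a member was 65, for Hspa1a in a treated FBXL5ΔDC liver. All 8 hepatocyte markers were present in every group, as a liver sample requires. Dendritic cell markers summed to 4.47 to 8.08 CPM (counts scaled to a common library size) over all libraries. Fbxl5 itself was at 20.1 ± 2.27 CPM in untreated control and 17.2 ± 5.99 CPM in untreated FBXL5ΔDC livers (SD, n = 3 each), and at 15.8 ± 3.01 and 18.6 ± 5.25 CPM after treatment. Itgax, which encodes CD11c, was at or below 0.584 CPM in every library. Whole liver therefore cannot check a deletion made in CD11c+ cells. Treated control liver 3 stood apart from its group: on the first principal component, which held 39.8% of the variance, it lay at 86.8, the other two treated controls at -9.46 and -8.18, and the treated FBXL5ΔDC livers between 97.7 and 107. Values without it are given beside the results on the members and lists below.

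Before treatment, the members spanned a wide range of abundance, and none was called between genotypes. Per kilobase of merged exons, Hspa8 was the highest in untreated control livers at 372 ± 96.9 CPM per kb (SD, n = 3). Hsp90aa1 (85.1 ± 25.5), Hspb8 (80.8 ± 20.6) and Hspb1 (66.6 ± 26.4) followed on the same scale, with differences smaller than their SDs. Hspa1b was at 45.2 ± 31.0 CPM per kb and Bag3 at 21.8 ± 9.94. Hsph1 (14.2 ± 6.40), Dnajb1 (14.0 ± 5.16) and Hspa1a (11.0 ± 7.41) could not be ordered against one another, and Hsf1 was the lowest at 1.78 ± 0.0459. Merged exons join all annotated exons of a gene and can exceed a single transcript: 4301 against 2394 bases for Hspa8. Order on this scale depends on that length.

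The livers of a group were not alike among themselves. In both genotypes the liver numbered 1 was the lowest of its 3 for 9 of the 10 members, Hsf1 being the exception. After treatment it was liver 3, the lowest of its 3 for 8 members in control and for 9 in FBXL5ΔDC mice. Hspa1b stood at 27.8, 162 and 190.4 CPM in the 3 untreated control livers and at 26.3, 234 and 161 CPM in the 3 untreated FBXL5ΔDC livers. The highest and lowest livers differed 6.85-fold in control and 8.89-fold in FBXL5ΔDC mice for this gene, while Hsf1 kept between 9.65 and 14.4 CPM in all 6. In untreated control livers the SD of log2 CPM had a median of 0.633 over the members, against 0.25 over all genes tested.

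Against that spread, genotype made no difference that the test could resolve at 0 h. With edgeR's quasi-likelihood test and Benjamini-Hochberg adjustment over 17585 genes, 0 members were higher and 0 lower in FBXL5ΔDC livers at an adjusted p below 0.05, where 0% of all genes were called higher and 0% lower. None of the 10 had an unadjusted p below 0.05 either, compared with 2.64% of all genes, and DESeq2 called 0 members. The 95% intervals were wide for the inducible HSP70 genes (log2 -2.18 to 2.60 for Hspa1a) and narrow for Hspa8 (-0.66 to 0.27), Hspb8 (-0.58 to 0.41) and Hsf1 (-0.54 to 0.43).

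**Figure D1:**
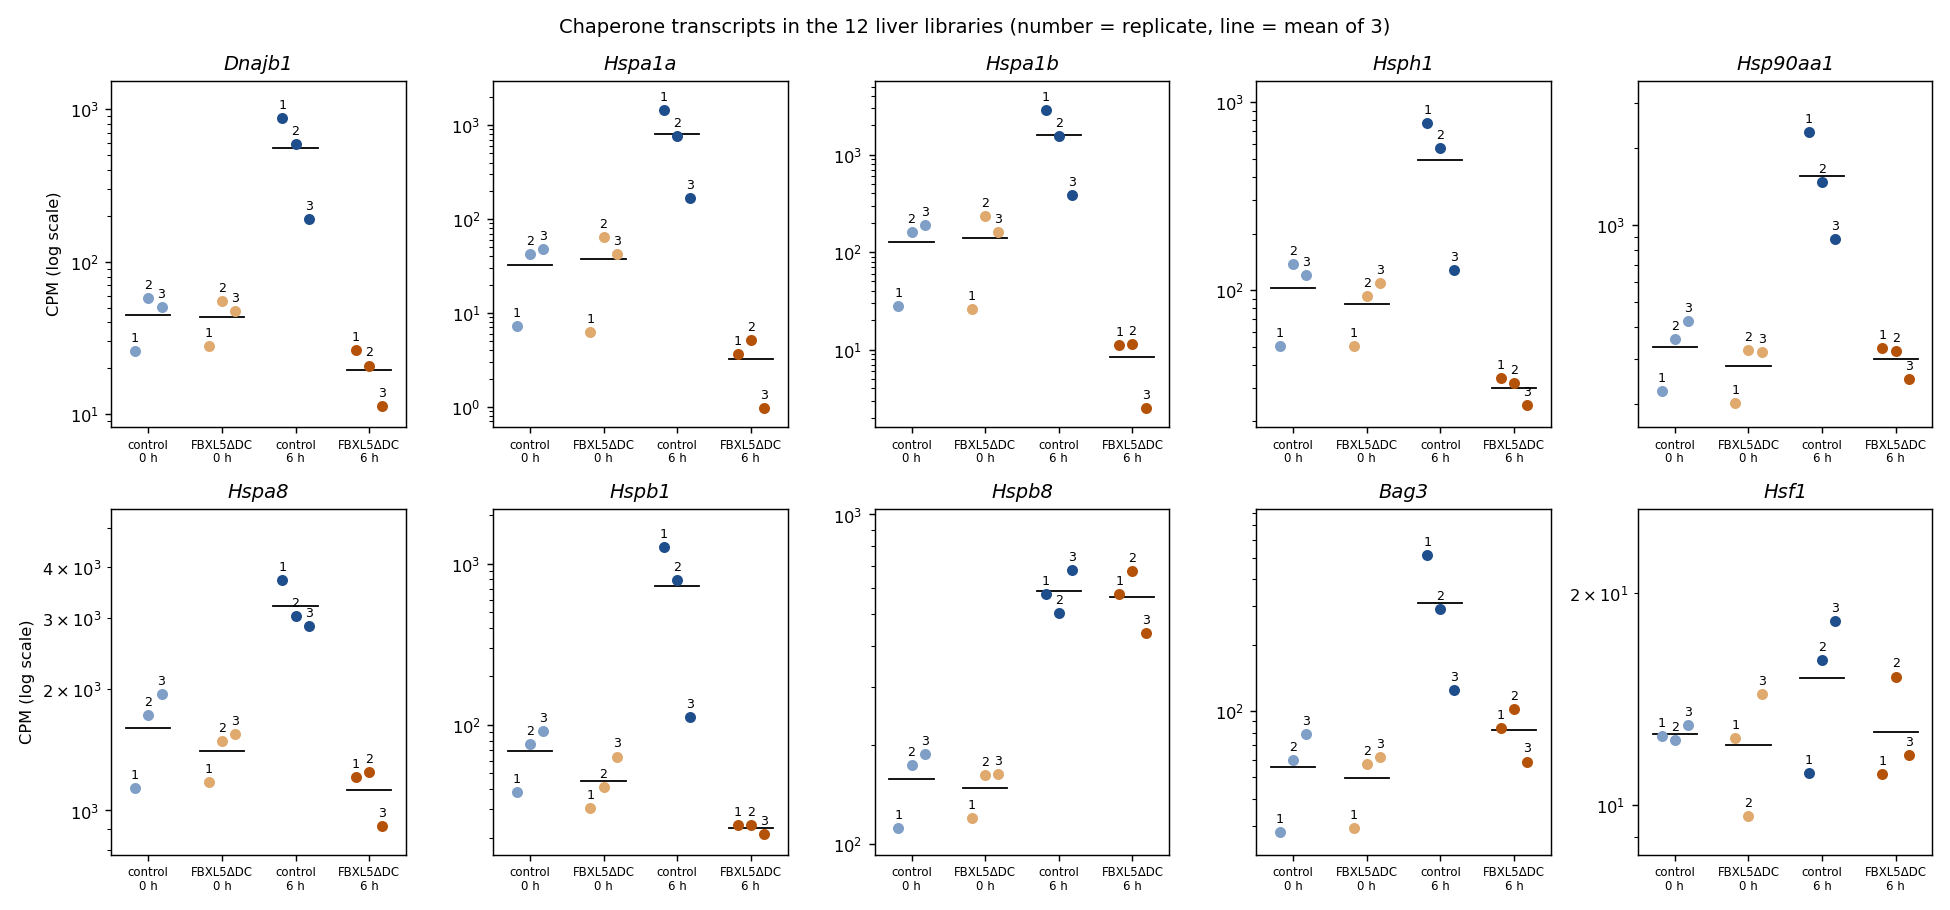
Level of each of the 10 transcripts in the 12 livers, in CPM on log axes, by genotype and time; the numbers are the replicate numbers and the line is the mean of 3. Dnajb1 lies between 191 and 879.7 CPM in the treated control livers and between 11.3 and 26.5 CPM in the treated FBXL5ΔDC livers, whereas Hspb8 lies between 438 and 679 CPM in both.

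Nearly the whole set was higher after acetaminophen in control livers. Of the 10 members, 8 rose and 0 fell, where 6.36% of all genes tested were called higher and 4.2% lower. The median change of the members was 2.37 on the log2 scale, against 0.0331 over all genes. The 2 members that did not pass were Hspa1b and Hsf1.

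Hspa1a, Hspa1b and Dnajb1 had the largest fitted changes of the 10 members, followed by Hspb1. Dnajb1 (ENSMUSG00000005483.10, chromosome 8 from 83608193 to 83612653, mm10) was at 26.1, 57.5 and 50.8 CPM in untreated control livers and at 879.7, 592 and 191 CPM in treated ones. Every treated liver was above every untreated one, and liver 3 was the lowest of the treated. The fitted change was 12.4-fold (log2 3.63, with an SE of 0.58; edgeR, adjusted p = 0.00461). Hspa1a (ENSMUSG00000091971.3, chromosome 17 from 34969190 to 34972156) went from 7.29, 42.4 and 47.8 CPM to 1463, 767 and 168 CPM, again without overlap and with liver 3 lowest (log2 4.62, SE 1.20; edgeR, adjusted p = 0.0412). Its neighbour and near copy Hspa1b (ENSMUSG00000090877.3, chromosome 17 from 34956436 to 34959238) was at 27.8, 162 and 190.4 CPM before and at 2860.2, 1546 and 385 CPM after. Those groups did not overlap, but the spread left the change short of the threshold (log2 3.66, SE 1.12; edgeR, adjusted p = 0.0705). For the sum of both genes the change was also short of it (log2 3.91, SE 1.14; edgeR, adjusted p = 0.0608). The sum does not depend on how reads were split between them.

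Hsph1, the HSP110 exchange factor (ENSMUSG00000029657.15, chromosome 5 from 149614287 to 149636376), was at 50.3, 138 and 121 CPM in untreated and 779.8, 568 and 128 CPM in treated control livers. Treated livers 1 and 2 were far above the untreated ones, and liver 3 lay inside the untreated range, so the groups overlapped (log2 2.26, SE 0.61; edgeR, adjusted p = 0.0424). Hspa8 (ENSMUSG00000015656.17, chromosome 9 from 40800984 to 40810087), the abundant constitutive HSP70, rose from 1137, 1722 and 1944 CPM to 3712, 3017 and 2865 CPM. Its treated livers were close together, and the change was 2.0-fold (log2 1.0, SE 0.20; edgeR, adjusted p = 0.00957).

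Hsp90aa1 (ENSMUSG00000021270.13, chromosome 12 from 110690605 to 110702728) rose from 224, 359 and 420.4 CPM to 2302, 1475 and 877 CPM. All 3 treated livers were above the untreated range (4.64-fold, log2 2.21, SE 0.34; edgeR, adjusted p = 0.00267). Hspb1 (ENSMUSG00000004951.10, chromosome 5 from 135887919 to 135889563), a small heat shock protein that also binds actin, rose from 38.6, 75.9 and 91.5 CPM to 1279, 794 and 112 CPM (log2 3.41, SE 0.73; edgeR, adjusted p = 0.0185). Liver 3 exceeded the untreated livers only slightly here, and the treated livers differed among themselves by 11.4-fold, the widest ratio of any member in that group.

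The Hspb8 and Bag3 pair rose as well, with different evenness. Hspb8 (ENSMUSG00000041548.4, chromosome 5 from 116408491 to 116422864) was at 112, 173 and 187 CPM before and at 573, 502 and 679 CPM after treatment. In this gene liver 3 was the highest of the treated livers, not the lowest, and the adjusted p was the smallest of the 10 members (log2 1.89, SE 0.22; edgeR, adjusted p = 3.63e-04). Bag3 (ENSMUSG00000030847.8, chromosome 7 from 128523616 to 128546981) rose from 28.3, 60.3 and 78.7 CPM to 515, 292 and 125 CPM (log2 2.48, SE 0.54; edgeR, adjusted p = 0.0177). Hsf1 (ENSMUSG00000022556.11, chromosome 15 from 76477422 to 76501913) was at 12.5, 12.4 and 13.0 CPM before and at 11.1, 16.1 and 18.2 CPM after, with overlapping groups. Its transcript showed no change past the threshold (log2 0.26, 95% interval -0.22 to 0.74; edgeR, adjusted p = 0.50).

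Without treated control liver 3 the count in control livers was again 8 of 10 higher, where 5.23% of all genes were then called higher. Each called change except that of Hspb8 (log2 1.77) was larger: log2 4.04 for Dnajb1, 5.10 for Hspa1a, 3.92 for Hspb1, 2.86 for Bag3, 2.71 for Hsph1, 2.50 for Hsp90aa1 and 1.07 for Hspa8. Hspa1b, at log2 4.12, again missed the threshold (edgeR, adjusted p = 0.0757), as did Hsf1 at 0.10. The summed Hspa1 pair, at log2 4.38, missed it too (edgeR, adjusted p = 0.0659). Leaving out untreated control liver 1, 2 or 3 lowered the count to 4, 4 and 5, and fitting these 2 groups alone lowered it to 3. Genes called in all fell too, from 1857 to 1021, 763 and 856, and to 402 with the 2 groups alone. Dnajb1, Hsp90aa1 and Hspb8 passed under all 22 alternative settings, whereas Hspa1a was lost under 13 of 21 and Hsph1 under 15 of 22.

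In FBXL5ΔDC livers the members went both ways after the same treatment. Of the 10 members, 1 rose (Hspb8) and 2 fell (Hspa1a and Hspa1b), which was near the 15% of all genes tested called higher and 15.1% called lower. Of the 7 members not called, 3 had fitted levels above the untreated ones and 4 below. The members' median was -0.642 on the log2 scale, against 0.0167 over all genes.

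Hspa1a was at 6.26, 64.4 and 42.4 CPM in untreated FBXL5ΔDC livers and at 3.61, 5.09 and 0.969 CPM 6 h after acetaminophen. Every treated liver was below every untreated one, and treated liver 3 was the lowest (11.7-fold lower, log2 -3.55, SE 1.16; edgeR, adjusted p = 0.0454). Hspa1b moved with it, from 26.3, 234 and 161 CPM to 11.2, 11.4 and 2.52 CPM (log2 -4.07, SE 1.15; edgeR, adjusted p = 0.0252). Untreated livers 2 and 3 were high for both genes, and untreated liver 1 lay nearer to the highest treated liver than to the others of its group. For the sum of both genes the change was log2 -3.94 (SE 1.15; edgeR, adjusted p = 0.0291).

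Dnajb1, Hsph1 and Hspb1 also had fitted levels below the untreated ones, short of the threshold. Dnajb1 was at 27.9, 55.2 and 47.7 CPM before and at 26.5, 20.9 and 11.3 CPM after, with no overlap (log2 -1.16, 95% interval -2.39 to 0.07; edgeR, adjusted p = 0.133). Hsph1 was at 50.4, 93.3 and 109 CPM before and at 33.9, 32.0 and 24.4 CPM after, again with no overlap (log2 -1.49, 95% interval -2.85 to -0.12; edgeR, adjusted p = 0.0864). Hspb1 was at 30.4, 40.9 and 63.7 CPM before and at 23.8, 24.0 and 21.2 CPM after, and its treated livers agreed closely with one another (log2 -0.97, 95% interval -2.53 to 0.60; edgeR, adjusted p = 0.327).

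The abundant Hsp90aa1 and Hspa8 did not pass in the same livers. Hsp90aa1 was at 203, 325 and 320.2 CPM untreated and 331, 322 and 251 CPM treated (log2 0.09, 95% interval -0.66 to 0.84; edgeR, adjusted p = 0.872). Hspa8 was at 1173, 1487 and 1545 CPM untreated and 1213, 1247 and 917 CPM treated (log2 -0.32, 95% interval -0.78 to 0.15; edgeR, adjusted p = 0.268). Both sets of groups overlapped.

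Hspb8 was the only member called higher. It rose from 120.0, 162 and 163 CPM to 574, 676 and 438 CPM in FBXL5ΔDC livers, with all treated livers above all untreated ones (3.79-fold, log2 1.92, SE 0.22; edgeR, adjusted p = 1.27e-04). Its partner Bag3 was at 29.5, 57.8 and 61.7 CPM before and at 84.1, 102 and 59.1 CPM after, so that treated livers 1 and 2 were above the untreated range and liver 3 was inside it (log2 0.72, 95% interval -0.46 to 1.91; edgeR, adjusted p = 0.333). Hsf1 stood at 12.5, 9.65 and 14.4 CPM before and at 11.1, 15.2 and 11.8 CPM after (log2 0.06, 95% interval -0.42 to 0.54; edgeR, adjusted p = 0.864).

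The rise of Hspb8 in FBXL5ΔDC livers passed under all 22 alternatives. The falls of the HSP70 pair were less secure: leaving out untreated FBXL5ΔDC liver 2 or 3, or any single treated FBXL5ΔDC liver, left Hspb8 as the only member called in that comparison. Genes called in all were then 3823 to 4417, against 5286 in the main fit. Leaving out treated control liver 3, which is not in this comparison but shares its estimate of spread, called 1 more member, Hsph1, lower (edgeR, adjusted p = 0.0208), where 17.3% of all genes were then called lower.

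**Figure D2:**
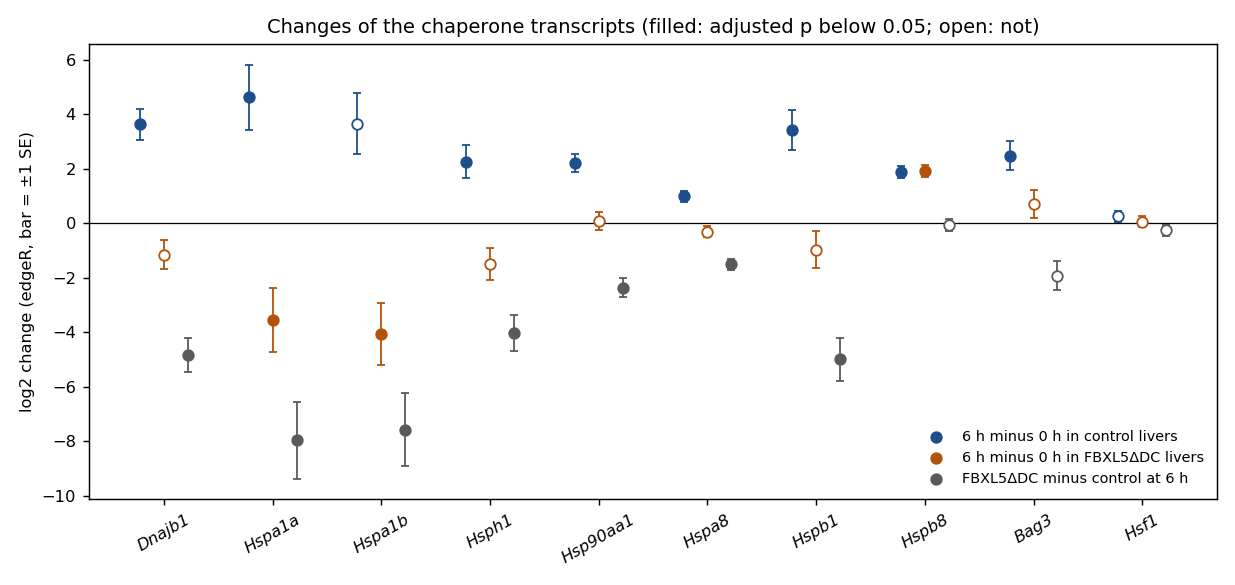
Fitted log2 change of each transcript after acetaminophen in control livers (blue) and in FBXL5ΔDC livers (orange), and the difference between genotypes at 6 h (grey); bars are 1 SE, and filled symbols have an edgeR adjusted p below 0.05. Dnajb1 is at 3.63, -1.16 and -4.82, and Hspb8 at 1.89, 1.92 and -0.06.

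At 6 h after acetaminophen the FBXL5ΔDC livers held far less chaperone transcript than the control livers. Of the 10 members, 7 were lower and 0 higher, where 4.51% of all genes tested were called lower and 1.35% higher. The median over the members was -3.20 on the log2 scale, against -0.0143 over all genes. This comparison uses the same treated libraries as the time comparisons above, so its values are set beside theirs and are not separate evidence.

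For the inducible HSP70 genes the fitted gap was 207-fold. Treated control livers had 4323, 2312 and 553 CPM of Hspa1a and Hspa1b together, and treated FBXL5ΔDC livers 14.8, 16.5 and 3.49 CPM. Even control liver 3, the lowest of its group, was far above the highest FBXL5ΔDC liver. The summed pair differed by log2 -7.69 (SE 1.37; edgeR, adjusted p = 0.0171), Hspa1a alone by -7.96 (adjusted p = 0.0170) and Hspa1b alone by -7.58 (adjusted p = 0.0171).

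Hspb1 and Dnajb1 came next. Hspb1 was 31.6-fold lower in treated FBXL5ΔDC livers (log2 -4.98, SE 0.79; edgeR, adjusted p = 0.0108), from 728 ± 586 CPM in controls to 23.0 ± 1.60 CPM (SD, n = 3 each). Dnajb1 was 28.3-fold lower (log2 -4.82, SE 0.62; edgeR, adjusted p = 0.00469), from 554 ± 346 to 19.6 ± 7.70 CPM. For both genes all 3 FBXL5ΔDC livers were below all 3 controls, liver 3 of the controls included.

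Hsph1 was 16.4-fold lower (log2 -4.03, SE 0.65; edgeR, adjusted p = 0.0112), Hsp90aa1 5.15-fold lower (log2 -2.36, SE 0.34; edgeR, adjusted p = 0.00535) and Hspa8 2.84-fold lower (log2 -1.51, SE 0.21; edgeR, adjusted p = 0.00399). None of these groups overlapped. Here and in the other comparisons, the share of all genes whose groups did not overlap was not determined. A lack of overlap therefore describes these livers and is not a test, for called and uncalled members alike. Bag3 had means of 311 ± 196 CPM in control livers and 81.9 ± 21.7 CPM in FBXL5ΔDC ones (SD, n = 3 each), likewise without overlap, but missed the threshold (log2 -1.93, 95% interval -3.14 to -0.71; edgeR, adjusted p = 0.0608).

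Hspb8 and Hsf1 did not pass between treated control and treated FBXL5ΔDC livers. Hspb8 averaged 585 ± 89.1 CPM in the former and 562 ± 119 CPM in the latter (SD, n = 3 each; log2 -0.06, 95% interval -0.55 to 0.44; edgeR, adjusted p = 0.912). Hsf1 was at 15.1 ± 3.66 and 12.7 ± 2.22 CPM (log2 -0.25, 95% interval -0.73 to 0.23; edgeR, adjusted p = 0.519). The order of abundance per kilobase of merged exons was another one in treated FBXL5ΔDC livers. There Hspb8 (288 ± 61.1 CPM per kb) stood beside Hspa8 (262 ± 42.1), and Hspa1b (2.99 ± 1.81) and Hspa1a (1.09 ± 0.703) had come down to the level of Hsf1 (1.79 ± 0.313; SD, n = 3 each). This order depends on the merged length. In CPM, Hspa8 (1126 ± 181) was above Hspb8 in these livers. Hspa1b (8.37 ± 5.07) and Hspa1a (3.22 ± 2.09) had means below that of Hsf1 (SD, n = 3 each). In treated control livers Hspa8 was at 744 ± 105, Hspb1 at 706 ± 568 and Hspa1b at 570.0 ± 442 CPM per kb, all with ranges that met.

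Leaving out treated control liver 3, the lowest control for 7 of these members and for Bag3, raised the count of lower members from 7 to 8, Bag3 being the added one (log2 -2.30; edgeR, adjusted p = 0.0105), while the share of all genes called lower rose to 12.9%. Without that liver the differences were log2 -8.16 for the summed Hspa1 pair (286-fold), -8.44 for Hspa1a, -8.04 for Hspa1b, -5.49 for Hspb1, -5.23 for Dnajb1, -4.49 for Hsph1, -2.65 for Hsp90aa1 and -1.58 for Hspa8, with Hspb8 at 0.063 and Hsf1 at -0.10 still short of the threshold. Leaving out treated FBXL5ΔDC liver 2 reduced the count to 3, with 1.31% of all genes called lower, and fitting the 2 treated groups alone called 0 of the 10 members and 6 genes in all. In bulk liver, fewer cells of a type and less RNA per cell cannot be told apart. Other measures differed between the treated groups at 6 h too. Endothelial markers summed to 112 to 173 CPM in treated control and 211 to 259 CPM in treated FBXL5ΔDC livers, and stellate cell markers to 120 to 200 and 227 to 268 CPM. Mitochondrially encoded genes took 6.38 to 7.05% and 8.94 to 9.43% of counts. Of the 10 marker lists, only the endothelial and stellate sums did not overlap between the treated groups. Their highest control sums, 173 and 200 CPM, were those of treated control liver 3. By gene, edgeR called 1 of 6 endothelial markers higher in FBXL5ΔDC livers and 0 of 6 stellate cell markers. Of the 6 markers on either list, none was at 0 in a treated group. Hepatocyte markers summed to 71900 to 117000 CPM in treated control and 105000 to 140000 CPM in treated FBXL5ΔDC livers, and most of each sum was Alb. By gene, edgeR called 0 of these 8 markers higher and 1 lower in FBXL5ΔDC livers. The lower one was Cyp2e1, which converts acetaminophen to its reactive metabolite (log2 -2.06, SE 0.25; edgeR, adjusted p = 0.00365). The part of these measures in the chaperone difference was not tested.

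**Figure D3:**
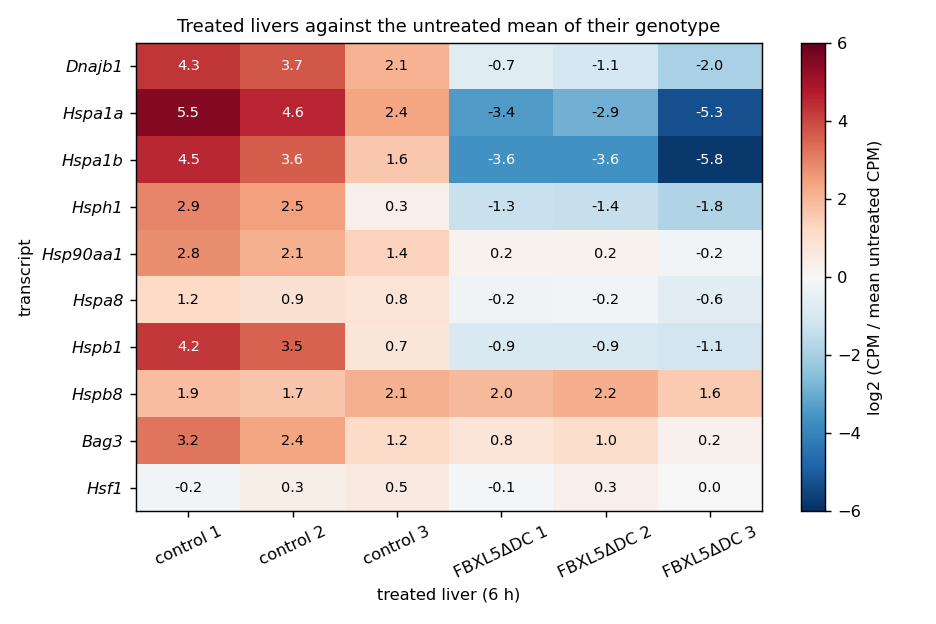
Log2 ratio of each treated liver to the mean of the untreated livers of its genotype, for each transcript. The control columns are positive in each row apart from Hsf1, control 3 has the smallest of the 3 values for 8 transcripts, and the FBXL5ΔDC columns reach -5.8 for Hspa1b while staying at 1.6 to 2.2 for Hspb8.

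Whether the response itself differed between genotypes was tested with the interaction of genotype and time. For Dnajb1 the response in FBXL5ΔDC livers was lower than in control livers by log2 -4.78 (SE 0.78; edgeR, adjusted p = 0.0483). It was the only member called, 1 lower and 0 higher, where 0.256% of all genes were called lower and 0.0341% higher. The estimates for Hspa1a (log2 -8.17), Hspa1b (-7.73), Hspb1 (-4.37), Hsph1 (-3.74), Hsp90aa1 (-2.12) and Hspa8 (-1.32) had edgeR adjusted p between 0.0793 and 0.0993, and that of Bag3 (-1.76) had 0.309. For these 8 members the unadjusted p was below 0.05, as it was for 14.5% of all genes. The summed Hspa1 pair was at log2 -7.855 (edgeR, adjusted p = 0.088), short of the threshold. Hspb8 differed by 0.03 (95% interval -0.67 to 0.73; edgeR, adjusted p = 0.983).

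The interaction depended on single libraries. Without treated control liver 3, 7 members were called lower, where the share of all genes called lower rose from 0.256% to 7.74%, with Dnajb1 at log2 -5.20 (edgeR, adjusted p = 0.00126) and Hspb1 at -4.89 (adjusted p = 5.62e-04). Leaving out any 1 of the other 11 libraries left 0 members called, with Dnajb1 between log2 -5.07 and -4.29. Genes called in all were then 1 to 22, against 51 in the main fit.

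Across the 12 libraries the members fell into groups that moved to different degrees with one another. Pearson's r of log2 CPM with Dnajb1 was 0.967 for Hspa8 and for Hspb1, 0.965 for Hspa1a, 0.961 for Hsph1 and 0.955 for Hsp90aa1. It was 0.839 for Bag3, 0.348 for Hspb8 and 0.248 for Hsf1. Bag3 was nearer to Hsp90aa1 (0.951) and stood between the main group and Hspb8 (0.729). Over the 11 libraries without treated control liver 3, r with Dnajb1 was 0.952 to 0.98 for those 5 genes, 0.838 for Bag3, 0.28 for Hspb8 and 0.116 for Hsf1. These values describe libraries that share 4 treatment groups, so they carry no p.

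The 10 tested genes outside the set whose pattern was most like that of Dnajb1 included chaperones and copies of the members. Hsp90ab1, the constitutive HSP90, was first (r = 0.985, n = 12 libraries), and the J-domain protein gene Dnaja1 (0.964) and the HSP90 co-chaperone gene Ptges3, also called p23 (0.958), were also among them. Another 4 were annotated pseudogenes of members: Gm15459 (0.971) and Gm6210 (0.962), which resemble Hspa8, Gm12346 (0.968), which resembles Hsp90aa1, and Hsp25-ps1 (0.956), which resembles Hspb1. The other 3 were Upf1, a helicase of nonsense-mediated decay (0.968), Ddit3, which encodes CHOP (0.968), and Dgat2, an enzyme of triglyceride synthesis (0.959). Over the 11 libraries without treated control liver 3, Hsp90ab1 was again first (0.983), and 7 of these 10 genes were among the first 10, without Gm6210, Dgat2 and Ptges3 (0.956 to 0.96). Mean levels were 6.45, 89.3 and 4.6 CPM for Ddit3 and 351, 510.0 and 256 CPM for Dgat2, in the order untreated control, treated control and treated FBXL5ΔDC livers.

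Near copies limit how exactly some members can be counted. Hspa1a and Hspa1b transcripts were 99.2% identical over 2201 bases, so the split of reads between them is uncertain. The ratio of Hspa1b to Hspa1a counts was 3.64 to 4.21 in the 6 untreated livers, 1.96, 2.02 and 2.29 in treated control livers and 3.09, 2.25 and 2.60 in treated FBXL5ΔDC livers. All treated livers were below all untreated ones in this ratio. Hspa1a also shares exons with Gm20481 on the other strand, and the counting's use of strand is not given in the sources used here. Copies at 95% identity or more over at least 300 bases took 11.3 to 12.1% of the counts shared with Hspa8, 2.79 to 3.62% of those with Hsp90aa1 and 7.45 to 12.1% of those with Hspb1. For Hsp90aa1 the share was 3.23 to 3.45% in untreated and 2.79 to 3.2% in treated FBXL5ΔDC livers, without overlap. The other ranges of these genes overlapped or met between groups. No such copy was found for Dnajb1, Hsph1, Hspb8, Bag3 or Hsf1.

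**Figure D4:**
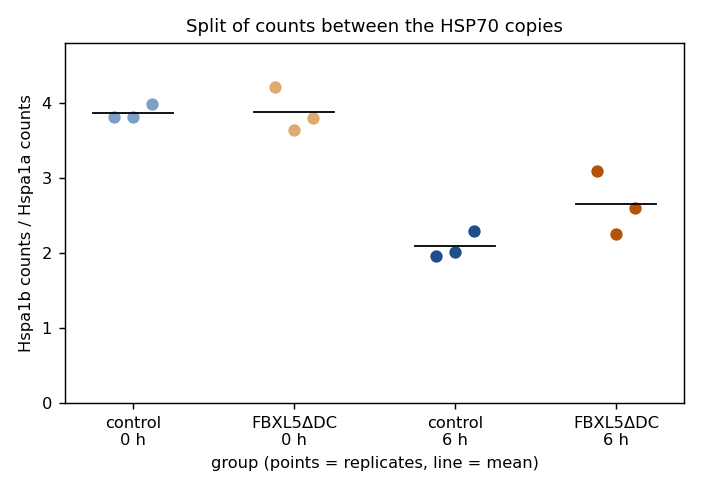
Ratio of Hspa1b counts to Hspa1a counts in each liver, with the mean of each group of 3 as a line. Untreated livers lie between 3.64 and 4.21 and treated livers between 1.96 and 3.09.

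Beyond the members, the wider heat shock system was followed in lists by role, also chosen with earlier results of these data known. Of 69 further genes in 8 lists, 66 were tested. In control livers 18 rose and 1 fell after acetaminophen (27.3% and 1.52%, against 6.36% and 4.2% of all genes; median log2 0.199). In FBXL5ΔDC livers 13 rose and 11 fell (19.7% and 16.7%), which was near the 15% and 15.1% of all genes (median 0.0122). At 6 h 1 was higher and 16 lower in FBXL5ΔDC than in control livers (1.52% and 24.2%, against 1.35% and 4.51% of all genes; median -0.183). The same shares of all genes go with the main counts of each list below. At 0 h edgeR called 0 of them, with 0 at an unadjusted p below 0.05 and 0 by DESeq2. In the interaction edgeR also called 0, with 22 at an unadjusted p below 0.05, and DESeq2 called 8. An unadjusted p below 0.05 was held by 2.64% of all genes at 0 h and by 14.5% in the interaction. DESeq2 called 16 and 718 genes in all there. In control livers, in FBXL5ΔDC livers and between genotypes at 6 h, those shares were 24.7, 40.4 and 22.7%. DESeq2 then called 2943, 6259 and 2253 genes in all. These values go with the unadjusted and DESeq2 counts of the lists below.

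Among the other cytosolic J-domain genes, 4 of 11 rose in control livers, led by Dnaja4 (mean 4.97 CPM untreated and 56.6 CPM treated, a log2 change of 3.51; edgeR, adjusted p = 0.0359) and Dnaja1 (299 and 769.6 CPM, log2 1.36; adjusted p = 0.0307). The count fell to 2 with DESeq2's size factors and to 2 with upper quartile scaling, and over all alternatives it ran from 0 to 5. In FBXL5ΔDC livers 2 rose and 1 fell, and at 6 h 4 were lower, with Dnaja4 at log2 -4.04 (edgeR, adjusted p = 0.0347), Dnaja1 at -2.31 (adjusted p = 0.00759) and Dnajb2 at -1.44 (adjusted p = 0.0048). Dnajb5 was one that rose in FBXL5ΔDC livers (log2 1.44; edgeR, adjusted p = 0.00295).

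The list of HSP90 partners holds the constitutive HSP90 and its co-chaperones. Of its 15 genes, 5 rose and 0 fell in control livers, with Hsp90ab1 the largest of them (log2 0.99, SE 0.20; edgeR, adjusted p = 0.00826). With upper quartile scaling 2 rose, and over all alternatives the count ran from 0 to 8. At 6 h, 8 were lower and 1 higher in FBXL5ΔDC livers: the largest differences were those of Chordc1 (log2 -1.91, adjusted p = 0.00751), Stip1, which bridges HSP70 and HSP90 (-1.53, adjusted p = 0.0185), and Hsp90ab1 (-1.34, adjusted p = 0.00474), all by edgeR. In FBXL5ΔDC livers over time 3 rose and 4 fell, Fkbp5 (log2 1.22; edgeR, adjusted p = 0.00957), which is also a target of glucocorticoids, and Unc45a (1.09, adjusted p = 1.08e-04) on the higher side and Chordc1 (-0.92, adjusted p = 0.0341) on the lower.

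Of 9 exchange factors for HSP70, 1 rose and 1 fell in control livers, 1 rose and 2 fell in FBXL5ΔDC livers, and 2 were lower in FBXL5ΔDC livers at 6 h. Hspa4, an HSP110 relative of Hsph1, rose in control livers (log2 0.67; edgeR, adjusted p = 0.00446) and was lower in FBXL5ΔDC livers at 6 h (-0.56, adjusted p = 0.0195), as was Hspa4l (-1.59, adjusted p = 0.0172). Bag4 fell in both genotypes, by 1.22 in control livers and by 1.52 in FBXL5ΔDC livers on the log2 scale (edgeR, adjusted p = 0.00605 and 5.81e-04). In FBXL5ΔDC livers Bag5 rose (log2 0.84; edgeR, adjusted p = 0.00972) and St13, which stabilises client binding by HSP70, fell (-0.57, adjusted p = 0.0179). Of the 5 other cytosolic HSP70 genes, none passed in control livers or between genotypes at 6 h, and only Hspa14 rose in FBXL5ΔDC livers (log2 0.54; edgeR, adjusted p = 0.0357); at an unadjusted p below 0.05 there were 0 in control livers and 1 between genotypes, and DESeq2 called 0 in either. Of the 4 other small heat shock genes tested, Hspb6 fell in FBXL5ΔDC livers (log2 -1.13; edgeR, adjusted p = 0.00754) and no other passed in any comparison by edgeR, although DESeq2 called 1 lower in control livers and a further 1 higher in FBXL5ΔDC livers.

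Among regulators, Ier5, an immediate early gene whose product promotes HSF1 activity, rose in both genotypes. Its means were 5.74 CPM untreated and 36.7 CPM treated in control livers (log2 2.67; edgeR, adjusted p = 0.00713), and 5.15 and 46.2 CPM in FBXL5ΔDC livers (log2 3.17; adjusted p = 0.00108). Hsf2 and Hsf4 fell in FBXL5ΔDC livers (log2 -1.18 and -1.40; edgeR, adjusted p = 0.00181 and 5.84e-04). Of 8 mitochondrial chaperones, 3 rose in control livers, 1 rose and 1 fell in FBXL5ΔDC livers, and 2 were lower in FBXL5ΔDC livers at 6 h. The chaperonin pair Hspe1 and Hspd1 rose in control livers (log2 1.48 and 1.31; edgeR, adjusted p = 0.0300 and 0.0189) and was lower in FBXL5ΔDC livers at 6 h (-2.03 and -1.39, adjusted p = 0.0149 and 0.0244). Hspa9, the mitochondrial HSP70, rose in both genotypes (log2 0.41 and 0.46; edgeR, adjusted p = 0.0263 and 0.00571), and its J-domain partner Dnaja3 fell in FBXL5ΔDC livers (-0.84, adjusted p = 0.00309). The subunits of TRiC, the cytosolic ring that folds actin and tubulin, are the last list: 4 of 8 rose in each genotype, with Cct7 at log2 0.53 and 0.55 (edgeR, adjusted p = 0.0361 and 0.0130), and with upper quartile scaling 1 rose in control and 3 in FBXL5ΔDC livers. Between genotypes edgeR called 0 of them at 6 h, where 2 had an unadjusted p below 0.05 and DESeq2 called 1.

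Without treated control liver 3, 16 of the 19 list genes called in control livers were again called, without Unc45a, Dnajc5 and Dnajc2, as were all 17 called at 6 h, and none of these genes changed sign. Dnaja4 was then at log2 4.07 in control livers and -4.60 at 6 h, Dnaja1 at 1.71 and -2.66, Hspe1 at 1.86 and -2.41, and Hspd1 at 1.66 and -1.74. Without that liver the lists gave 8 of 15 HSP90 partners higher in control livers, and at 6 h 3 of 8 TRiC subunits and 3 of 8 mitochondrial chaperones lower in FBXL5ΔDC livers, with 1 mitochondrial chaperone higher. Over all genes, 965 were then called higher in control livers, and 1873 higher and 2376 lower between genotypes at 6 h. Of the 57 list genes with a promoter in the RefSeq table, 16 (28.1%) held a GAANNTTC or TTCNNGAA match, against 17% of all genes in that table.

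**Figure D5:**
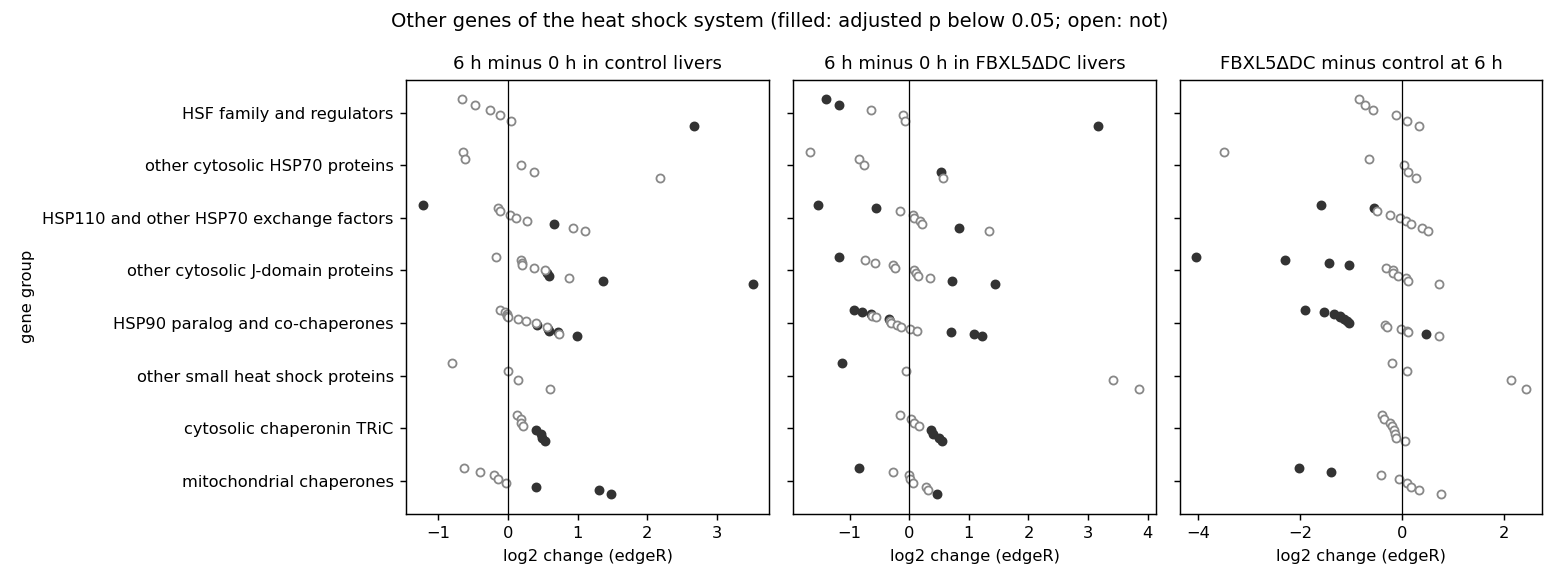
Log2 change of each tested gene in the 8 lists of other heat shock genes, by comparison; filled symbols have an edgeR adjusted p below 0.05. The filled symbols of the J-domain and HSP90 lists lie to the left at 6 h between genotypes, with Dnaja4 at -4.04, apart from Unc45a at 0.46, and the TRiC list has none in that panel.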

How the data were processed

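Whole-liver RNA was sequenced from 12 mice, 3 in each of 4 groups. The deposited table holds expected counts (estimated counts) per gene, listed as whole numbers; low values pile up at multiples of 4. Per the submitters' processing notes, Trim Galore 0.6.6, HISAT2 2.2.1 and the mm10 genome were used. The counting program and its use of strand are not given in the sources used here. The counts were taken as deposited and tested with edgeR 4.0.16 in R 4.3.3 (quasi-likelihood, robust; genes filtered by group, which left 17585 of 55401; TMM scaling; Benjamini-Hochberg adjustment; threshold 0.05), with 1 coefficient for each of the 4 groups over all 12 libraries and 5 contrasts. The test had been planned for counts and was kept for these whole-number estimates. CPM were computed on TMM-scaled library sizes. On simulated data the script was tested before use. The simulated spread was equal in all groups and smaller than in these data. Only the comparisons over time were simulated, so the other contrasts were not checked this way. Library totals were 67173096 to 72512319, and precision is limited by 3 livers a group rather than by depth. Over all genes tested, deviations from the group means did not pair the libraries by replicate number: 18 same-numbered pairs correlated between -0.0614 and 0.0441. No 2 libraries were identical.

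Alternatives were other scalings (DESeq2's size factors, upper quartile), DESeq2 1.42.0, no filter, counts divided by 4, a non-robust fit, only the 2 groups compared, a replicate block, the Hspa1 pair summed and each library left out. Leaving out both untreated livers numbered 1 was added after seeing the data. The members and gene lists were chosen with earlier results of these data known. Of each list up to 3 called genes with the largest change per comparison are named, and other genes named were picked after their values were seen, apart from the members, Fbxl5, Itgax and the 10 genes most like Dnajb1. Transcript identity was taken from GENCODE vM21 sequences with BLAST 2.17.0. Promoters came from RefSeq, GRCm38.p6.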

Additional observations from a re-analysis of the deposited data

Results flagged for a closer look

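The response of Dnajb1 to acetaminophen differed between genotypes by a direct test of the difference, the interaction of genotype and time: log2 -4.78 (SE 0.78; edgeR, adjusted p = 0.0483), with Dnajb1 higher than every untreated liver of its genotype in 3 of 3 treated control livers and lower than every untreated liver of its genotype in 3 of 3 treated FBXL5ΔDC livers. Over its 21 alternatives the estimate ran from -5.20 to -4.29 and the adjusted p from 3.30e-09 to 0.147, and the call was lost under 15 of them.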

How the results depend on the processing

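The direction of all called changes of the members was kept under every alternative run, but the number past the threshold moved. With the 2 groups compared fitted alone, 3 members were called in control livers over time (402 genes in all) and 5 in FBXL5ΔDC livers (6003 genes in all). Between genotypes, 0 members were called at 6 h (6 genes in all), and 3 genes in all at 0 h. With the replicate block, 5 members were called in control livers (1488 genes in all), 1 in FBXL5ΔDC livers (4906 genes in all) and 0 in the interaction (28 genes in all). Over all genes tested, same-numbered libraries did not deviate together, and 1 of 12 libraries correlated best with its own number. Among the members the low livers did share numbers: liver 1 was lowest for 9 in both untreated groups. After treatment liver 3 was lowest for 8 members in control and 9 in FBXL5ΔDC mice. Whether livers of the same number were handled together is not stated and was not tested. Without both untreated livers numbered 1, 4 members were called in control livers (677 genes in all) and 0 in the interaction (8 genes in all), with 377 genes in all at 6 h. DESeq2 called 7 members in the interaction, and 2943 genes in control livers, 16 between genotypes at 0 h, 2253 at 6 h (753 higher and 1500 lower, against 238 and 793 with edgeR) and 718 in the interaction. Without a filter on low counts, 1 member was called in FBXL5ΔDC livers (4715 genes in all) and 0 in the interaction (47 genes in all). Upper quartile scaling gave 0 members and 20 genes in the interaction, and split the genes called in control livers into 911 higher and 938 lower in place of 1118 and 739. The non-robust fit called 3 members in the interaction (44 genes in all), and counts divided by 4 gave 32 genes there. With 1 library left out, 4 to 8 members and 763 to 2170 genes were called in control livers. In FBXL5ΔDC livers it was 1 to 4 members and 3823 to 6305 genes. Between genotypes at 6 h, 3 to 8 members and 250 to 4249 genes were called, and in the interaction 0 to 7 members and 1 to 2533 genes. The highest values at 6 h and in the interaction came without treated control liver 3. Counts over the lists of other heat shock genes moved too: with upper quartile scaling, control livers had 2 J-domain genes, 2 HSP90 partners and 1 TRiC subunit called in place of 4, 5 and 4. The cause of these shifts was not tested, and the settings that left out libraries or groups also had fewer libraries.

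Values that changed sign were all short of the threshold. With 1 library left out, the genotype difference at 0 h ran from -0.42 to 0.72 for Hspa1a, -0.43 to 0.64 for Hspa1b, -0.31 to 0.20 for Dnajb1, -0.28 to 0.058 for Hspb8, -0.48 to 0.17 for Bag3 and -0.19 to 0.087 for Hsf1. The change in FBXL5ΔDC livers ran from -0.10 to 0.21 for Hsp90aa1, which was at -0.10 without both untreated livers numbered 1, and from -0.088 to 0.20 for Hsf1. For Hspb8 the difference at 6 h ran from -0.20 to 0.10 and the interaction from -0.11 to 0.22.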
